A study of Arabidopsis thaliana with 30 samples.

Results

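Transcript levels of 10 abscisic acid genes were followed in detached leaves of Arabidopsis thaliana, out of 37686 genes in the tables. The genes were picked by identifier for their place in the hormone's pathway, with earlier results of these data known: NCED3, CYP707A1, CYP707A3, HAI1, HAI2, HAI3, ABI1, ABI2, RD29B and RAB18. A limit on low values (at least 1 TPM in at least 2 libraries) kept 8 of the 10, and 20654 genes in all. HAI3 and RD29B stayed below it and were not tested. All plants were wild type of the accession Col-0, grown to 12 d of age on sucrose medium at 22 °C, in days with 16 h light and 8 h dark. The first rosette leaf pair was cut off where blade meets petiole. Blades then lay under 24 h of light on B5 medium lacking sucrose, to which NPA, an inhibitor of polar auxin transport, had been added or not (mock), and the labels give no dose for it. RNA came from the wounded end of the blade at detachment (T0) and at 7 times up to 5 d (6 h, 12 h, 24 h, then every day from 2 d) with NPA or mock. Each of the 15 groups had 2 libraries, 30 in all. The labels do not say that the 2 came from separate plants, so the tests measure the spread between libraries, which may be technical.

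Abscisic acid is made from carotenoids when leaves lose water, and the cleavage by NCED3 is the step that usually limits its synthesis. The CYP707A enzymes are hydroxylases that start its breakdown. Receptors of the PYR/PYL family that have bound the hormone hold back the clade A protein phosphatases, among them ABI1, ABI2 and the HAI proteins, which otherwise keep the SnRK2 kinases switched off. The freed kinases activate bZIP factors of the ABF group, which bind the response element in front of genes such as RD29B and RAB18. Many of the phosphatase and hydroxylase genes are themselves induced by the hormone, so the pathway feeds back on itself.

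The upstream sequences of the members differed in how many response element cores they held. The 300 bases before each annotated gene start were read from the RefSeq genome TAIR10.1 (the submitters' processing notes name TAIR10) and searched on both strands for ACGTG, the core that ABF factors bind. Of 27443 such windows in the genome 25.6% held at least 1 core, and 7 of the 10 members did. HAI2 held 5 cores (at least 5 in 0.554% of windows), RD29B 4 (at least 4 in 1.56%), RAB18 3 (at least 3 in 3.44%), and CYP707A1, CYP707A3 and HAI3 2 each (at least 2 in 9.94%). ABI1 held 1, and NCED3, HAI1 and ABI2 held 0. Shown are the 2 hydroxylase genes, because their windows share a stretch and their transcripts went opposite ways at 6 h, HAI2, which had most cores, and RD29B, a gene often used as a reporter of the hormone that was close to 0 here. Cores are in capitals, written 5′ to 3′ on the gene's own strand, and longer runs are cores that overlap on opposite strands (CACGTG in the hydroxylase genes) or adjoin on the same strand (in HAI2). CYP707A1 lies on the plus strand (chr4:10520959-10521258), CYP707A3 on the minus strand (chr5:18371022-18371321), HAI2 on the minus strand (chr1:2282829-2283128) and RD29B on the plus strand (chr5:21236721-21237020).
CYP707A1: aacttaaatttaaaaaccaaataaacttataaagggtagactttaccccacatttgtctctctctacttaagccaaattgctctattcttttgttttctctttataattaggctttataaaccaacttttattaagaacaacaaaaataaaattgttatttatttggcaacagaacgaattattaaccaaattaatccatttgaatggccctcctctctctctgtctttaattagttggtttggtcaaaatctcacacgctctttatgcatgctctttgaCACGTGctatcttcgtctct
CYP707A3: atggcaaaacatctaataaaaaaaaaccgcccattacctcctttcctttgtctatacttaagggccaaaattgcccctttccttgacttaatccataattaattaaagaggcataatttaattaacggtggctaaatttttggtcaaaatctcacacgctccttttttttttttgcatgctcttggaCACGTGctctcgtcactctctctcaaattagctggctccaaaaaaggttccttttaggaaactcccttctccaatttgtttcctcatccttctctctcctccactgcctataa
HAI2: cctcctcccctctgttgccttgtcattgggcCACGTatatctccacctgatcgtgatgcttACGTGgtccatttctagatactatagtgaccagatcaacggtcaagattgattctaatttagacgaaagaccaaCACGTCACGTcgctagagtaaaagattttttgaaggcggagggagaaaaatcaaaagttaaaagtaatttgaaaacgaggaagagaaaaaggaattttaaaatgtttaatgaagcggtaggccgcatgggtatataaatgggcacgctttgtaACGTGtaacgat
RD29B: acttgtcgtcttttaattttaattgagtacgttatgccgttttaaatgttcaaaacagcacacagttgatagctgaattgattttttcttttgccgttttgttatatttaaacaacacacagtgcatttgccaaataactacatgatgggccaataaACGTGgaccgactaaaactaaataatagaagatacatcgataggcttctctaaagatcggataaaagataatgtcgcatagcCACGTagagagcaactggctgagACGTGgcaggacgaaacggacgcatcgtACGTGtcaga
Both hydroxylase genes carried the G-box CACGTG (7.09% of windows), which contains the 2 overlapping cores, 20 bases before the start in CYP707A1 and 113 bases before it in CYP707A3. They also shared an identical run of 23 bases, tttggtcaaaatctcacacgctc, which began 61 and 162 bases before the start. The extended element ACGTGTC, which overlaps the core, was found in 5 members (4.05% of windows) and ACGTGGC, which also overlaps it, in 2 (3.72%). The drought element core CCGAC was found in RD29B (13.9% of windows), and the evening element AAAATATCT in ABI2 and RAB18 (2.79%). A match is a match of letters and was not tied to binding.

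**Figure D1:**
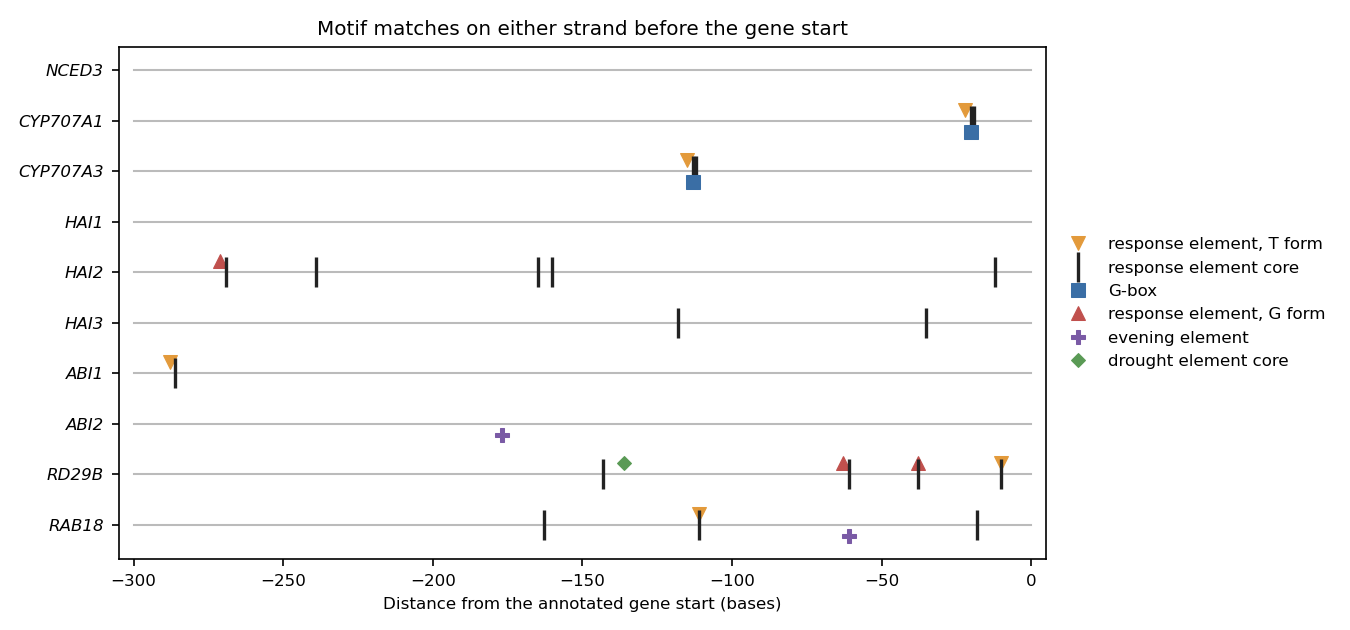
Motif matches on either strand in the 300 bases before the annotated start of each of the 10 genes; the x axis is the distance from the start in bases, and each symbol marks 1 match. HAI2 has 5 core matches and RD29B 4, while NCED3, HAI1 and ABI2 have 0.

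Relatives share part of their coding sequence, and whether reads were split between them was not tested. Over aligned coding bases CYP707A1 and CYP707A3 were 82.6% identical, ABI1 and ABI2 78.8%, and HAI2 and HAI3 75.7%, with longest identical stretches of 44, 26 and 21 bases. Exons of ABI1 (chromosome 4, 13219915 to 13222376) overlap the gene AT4G26070 on the other strand, and those of RAB18 (chromosome 5, 26518277 to 26519447) overlap AT5G66410. Whether the counting used strand is not given in the sources used here, so reads of ABI1 and RAB18 cannot be told apart from those of their neighbours, which stood at 4.73 to 40.5 TPM (AT4G26070) and 10.6 to 20.7 TPM (AT5G66410).

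Values are TPM, a gene's length-corrected share of the transcripts in its library, and the read depth behind them is unknown. Each difference is a log2 fold change ± SE of log2(TPM + 1) values, a scale that shrinks changes of low genes. The SE rests on 1 spread per gene shared by all 15 groups. It is thus the same at every time and does not show the spread of the libraries compared. A difference counts as called when the Benjamini-Hochberg adjusted p in limma, over all genes tested, is below 0.05. Replicate libraries correlated with r of 0.964 to 0.988 across genes, but only 0.888 at T0. The T0 libraries differed in clock genes, among others, with CCA1, a morning clock gene, at 318 TPM in T0 replicate 1 and 0.13 TPM in replicate 2. T0 replicate 2 exceeded replicate 1 by over 2-fold in 3 of the 8 tested members, and 0 differed that much the other way, so results against T0 are given with a check that leaves out each T0 library in turn. With 1 T0 library left, T0 adds nothing to the estimate of the spread, so this check does not measure the spread at T0. A T0 mean of 1 library also carries a larger SE than a mean of 2, so a call can be lost without a smaller difference. CYP707A3 at 6 h, for example, went from -2.235 to -2.549 without T0 replicate 1, and its call was lost. In bulk tissue fewer cells of a type and less RNA per cell cannot be told apart. All 4 mesophyll markers were present, and their summed level was 20875 and 22673 TPM with NPA at 5 d, 18376 and 18553 TPM in mock at 5 d and 48981 and 45686 TPM at T0. The 8 guard cell markers, from cells that respond strongly to the hormone, summed to 165 to 502 TPM with NPA, 191 to 425 TPM in mock and 295 to 599 TPM at T0. In mock they summed to 240 and 240 TPM at 2 d, 425 and 395 TPM at 3 d and 252 and 284 TPM at 5 d, so they were highest at 3 d, as CYP707A3 was. At 5 d they summed to 332 and 431 TPM with NPA, above both mock libraries, as NCED3 and CYP707A3 were. Elsewhere the markers and these genes went apart. With NPA at 3 d the markers summed to 470 and 457 TPM, above both mock libraries, while CYP707A3 was below both. At T0 replicate 1 had the higher sum (599 against 295 TPM) but less NCED3 and CYP707A3. The part of these shifts in the results was not tested.

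Against T0, with both T0 libraries kept, the 8 tested members were called lower more often than higher, while calls over the whole table were mostly higher with TPM as deposited. Without T0 replicate 2 that order turned round, to 11 higher and 9 lower member calls, and without T0 replicate 1 they were 7 and 12. Over 7 times and 8 tested members, 15 of 56 differences between mock and T0 were called lower (26.8%, against 8.66% of all gene and time pairs) and 9 higher (16.1%, against 33.1%). At 6 h 1 member was higher and 1 lower, beside 26.5% and 6.22% of all genes tested. At 12 h 2 were higher and 0 lower, beside 17% and 7.53%. At 24 h 2 were higher and 1 lower, beside 32.5% and 8.98%, and at 2 d 1 and 2, beside 33.4% and 8.94%. At 3 d 1 was higher and 3 lower, beside 39.9% and 9.35%. At 4 d the counts were again 1 and 3, beside 39.8% and 8.74%. At 5 d 1 was higher and 5 lower, beside 42.4% and 10.9%. Counting calls made in both of these fits, a check chosen after the data were seen, 9 were lower, and the 7 higher ones were those of CYP707A1 at all times. The median member changed by -0.56, 0.08, -0.11, -0.38, -0.26, -0.41 and -0.75 from 6 h to 5 d on the log2 scale, and the median gene by 0.21, 0.07, 0.26, 0.26, 0.34, 0.34 and 0.37. The share of rises among all calls from 6 h to 5 d was 81, 69.2, 78.4, 78.9, 81, 82 and 79.6% with TPM as deposited. With TMM factors it was 57.1, 58.7, 56.5, 57.4, 56.9, 59.9 and 58.3%, and with quantile normalization 50.3, 46.4, 46.9, 48.1, 45.3, 45.3 and 45.1%. The members' counts were then 9 higher and 21 lower (TMM) and 8 higher and 22 lower (quantile) with both T0 libraries kept. Changes of medium, light, age and time of day go with detachment and cannot be told apart from it.

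**Figure D2:**
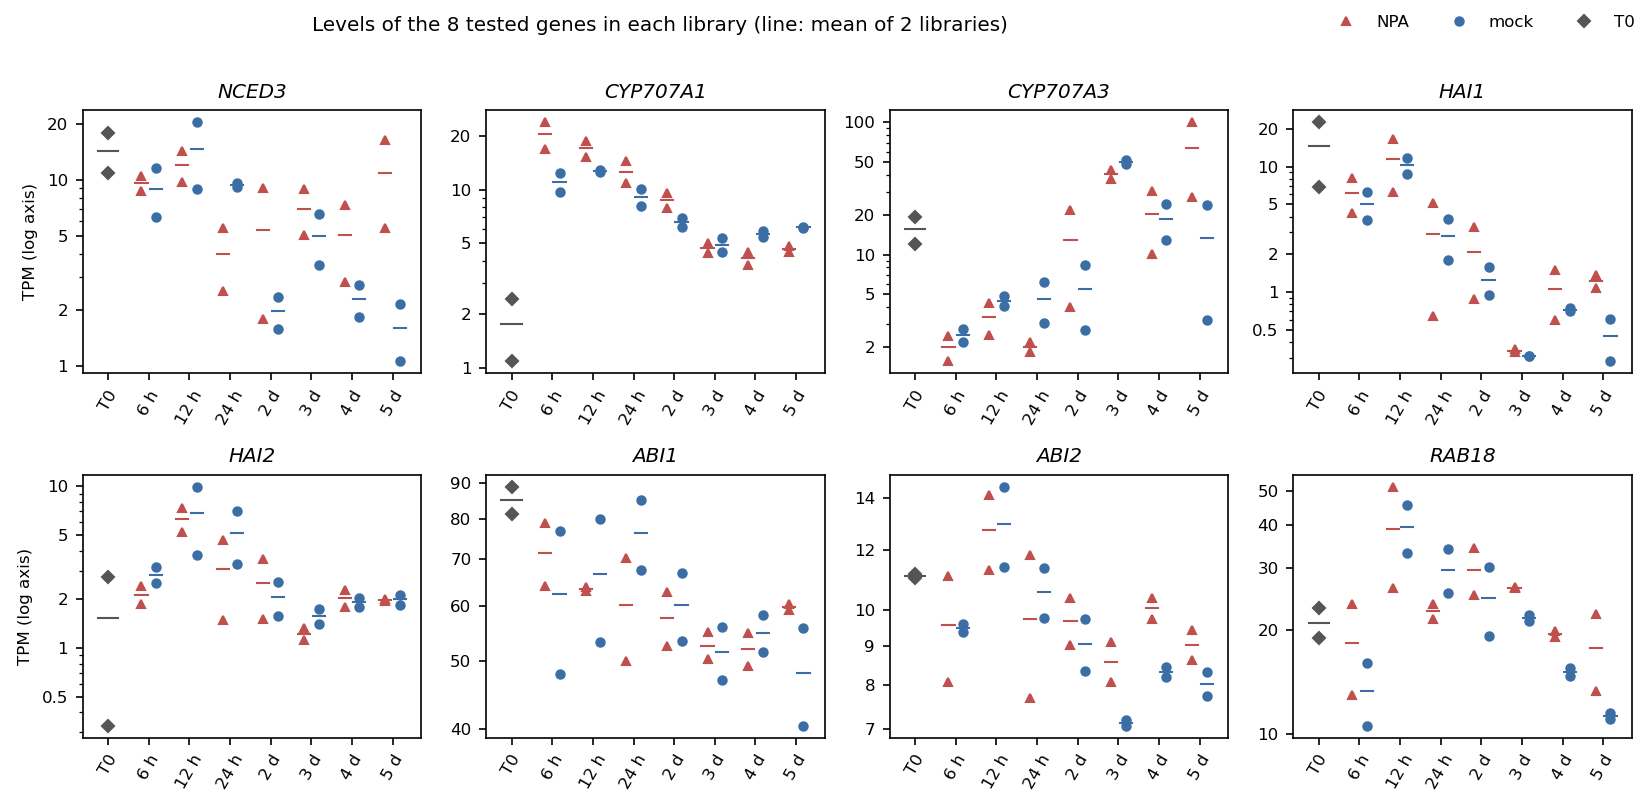
Level of the 8 tested genes in each library in TPM on a log axis, at T0 and from 6 h to 5 d with NPA (triangles, left) and in mock (circles, right); short lines are means of 2 libraries. CYP707A1 stands lowest at T0, at 1.09 and 2.43 TPM, HAI1 reaches 0.31 TPM in both mock libraries at 3 d, and CYP707A3 climbs to 51.8 and 48.6 TPM in mock at 3 d.

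NCED3, the synthesis gene (AT3G14440, chromosome 3, 4831286 to 4834015), was lower from 2 d on, and its mock libraries spread widely at 6 h and 12 h. It stood at 10.85 and 17.76 TPM at T0, and in mock at 11.6 and 6.35 TPM at 6 h, 8.89 and 20.4 TPM at 12 h and 9.16 and 9.59 TPM at 24 h. In mock it then stood at 2.36 and 1.58 TPM at 2 d, 6.54 and 3.49 TPM at 3 d, 2.73 and 1.84 TPM at 4 d and 2.15 and 1.06 TPM at 5 d. Every mock library from 24 h on was below both T0 libraries, while at 6 h and 12 h the groups overlapped. The difference at 24 h was not called. Over all genes 58.5% of gene and time pairs did not overlap with T0. The fall against T0 was called at 2 d (log2 fold change -2.34 ± 0.59, adjusted p = 0.00403), 4 d (-2.20 ± 0.59, 0.00497) and 5 d (-2.55 ± 0.59, 0.00141), and each of these held with either T0 library removed. At 3 d the difference was -1.36 ± 0.59 (adjusted p = 0.0634), and it was called with TMM factors (adjusted p = 0.0266) and quantile normalization (0.0118). Without T0, the mock level of NCED3 differed between the 7 times (limma F test, adjusted p = 0.00641).

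At 6 h the 2 hydroxylase genes differed from T0 in opposite directions, CYP707A1 higher and CYP707A3 lower. CYP707A1 (AT4G19230, chromosome 4, 10521259 to 10523961) stood at 1.09 and 2.43 TPM at T0, and in mock at 9.73 and 12.3 TPM at 6 h, 12.5 and 12.9 TPM at 12 h and 8.06 and 10.10 TPM at 24 h. In mock it then stood at 6.15 and 6.95 TPM at 2 d, 4.47 and 5.34 TPM at 3 d, 5.86 and 5.43 TPM at 4 d and 6.18 and 6.12 TPM at 5 d. All 14 mock libraries were thus above both T0 libraries (over all genes, 58.5% of gene and time pairs did not overlap with T0). The rise was called at every time, from a log2 fold change of 2.16 ± 0.21 at 6 h (adjusted p = 7.2e-07) and 2.35 ± 0.21 at 12 h (2.39e-07) to 1.14 ± 0.21 at 3 d (0.000257) and 1.42 ± 0.21 at 5 d (1.96e-05). CYP707A3 (AT5G45340, chromosome 5, 18368532 to 18371021) was lower early and then peaked at 3 d. It stood at 12.05 and 19.16 TPM at T0, and in mock at 2.72 and 2.19 TPM at 6 h, 4.88 and 4.11 TPM at 12 h, 6.23 and 3.05 TPM at 24 h and 8.41 and 2.67 TPM at 2 d. It reached 51.8 and 48.6 TPM in mock at 3 d, and stood at 24 and 12.9 TPM at 4 d and at 23.6 and 3.23 TPM at 5 d. From 6 h to 2 d every mock library was below both T0 libraries, and at 3 d both were above them. Only the fall at 6 h was called (-2.24 ± 0.79, adjusted p = 0.0368), and it was lost when either T0 library or either mock 6 h library was removed (adjusted p 0.0603 to 0.125). The rise at 3 d came to 1.66 ± 0.79 (adjusted p = 0.0893). The level of each gene differed between the 7 mock times (adjusted p = 0.000624 for CYP707A1 and 0.00668 for CYP707A3). Over the means of all 15 groups, which share libraries with everything above, r between CYP707A1 and CYP707A3 was -0.76, the lowest of the 28 member pairs.

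Among the phosphatase genes HAI1 fell furthest. HAI1 (AT5G59220, chromosome 5, 23894404 to 23896939) stood at 6.82 and 22.6 TPM at T0, and in mock at 3.74 and 6.3 TPM at 6 h, 8.8 and 11.7 TPM at 12 h and 1.8 and 3.81 TPM at 24 h. In mock it then stood at 1.57 and 0.94 TPM at 2 d, 0.31 and 0.31 TPM at 3 d, 0.75 and 0.7 TPM at 4 d and 0.61 and 0.28 TPM at 5 d. The mock libraries from 24 h on lay below both T0 libraries, while at 12 h they lay between them (58.5% of all gene and time pairs did not overlap with T0). The fall was called at 24 h (-1.89 ± 0.59, adjusted p = 0.0159), 2 d (-2.61 ± 0.59, 0.00185), 3 d (-3.37 ± 0.59, 0.000164), 4 d (-2.98 ± 0.59, 0.000449) and 5 d (-3.24 ± 0.59, 0.000167). Removing T0 replicate 2 ended the 24 h call (-1.09, adjusted p = 0.171), as did removing mock 24 h replicate 1 (0.114). The later ones held with either T0 library removed.

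HAI2 (AT1G07430, chromosome 1, 2280746 to 2282828), a close relative of HAI1, was not called lower than T0 at any time. Among mock times both genes had their highest mean at 12 h (10.26 TPM for HAI1, 6.87 TPM for HAI2). Both had their lowest mock mean at 3 d (0.31 and 1.58 TPM), and r between them over the 15 group means was 0.539. HAI2 stood at 0.33 and 2.75 TPM at T0, and in mock at 3.17 and 2.52 TPM at 6 h, 3.76 and 9.98 TPM at 12 h, 3.29 and 7.05 TPM at 24 h and 2.55 and 1.58 TPM at 2 d. From 3 d to 5 d its 6 mock libraries lay between 1.41 and 2.14 TPM, inside the T0 range. The 12 h rise of HAI2 (1.69 ± 0.47, adjusted p = 0.0124) and the 24 h rise (1.40 ± 0.47, 0.0236) were called. Both calls rested on T0 replicate 1, without which the differences were 0.95 (adjusted p = 0.158) and 0.65 (0.347). Without T0 replicate 2 HAI2 was called higher at 6 h (1.53, adjusted p = 0.0176), 12 h (2.44, 0.00093), 24 h (2.14, 0.00151) and 5 d (1.17, 0.0482). With both T0 libraries kept, each of the 2 calls was also lost without replicate 2 of its mock group (0.183 and 0.229). With quantile normalization HAI2 at 24 h was not called either (0.99, adjusted p = 0.076). HAI3 (AT2G29380, chromosome 2, 12608675 to 12610350), the remaining HAI gene, was listed at 0 in 24 of 30 libraries and reached at most 0.07 TPM.

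ABI1 (AT4G26080) was the most abundant of the 10 genes, at 40.5 to 88.95 TPM over all libraries, and fell by less than HAI1. It stood at 81.23 and 88.95 TPM at T0, and in mock at 76.8 and 47.9 TPM at 6 h, 53.3 and 80 TPM at 12 h, 67.6 and 85 TPM at 24 h and 66.9 and 53.6 TPM at 2 d. It then stood at 56.1 and 47.1 TPM in mock at 3 d, 58.3 and 51.5 TPM at 4 d and 55.8 and 40.5 TPM at 5 d. These 6 mock libraries were below both T0 libraries, as were those at 6 h, 12 h and 2 d (58.5% of all gene and time pairs did not overlap with T0). At 24 h the groups overlapped. With TMM factors and with quantile normalization ABI1 was called lower at 6 h (adjusted p = 0.0162 and 0.0159), 2 d (0.0088 and 0.0176) and from 3 d to 5 d. With TPM as deposited it was called lower at 3 d (-0.71 ± 0.23, adjusted p = 0.0165), 4 d (-0.62 ± 0.23, 0.0329) and 5 d (-0.83 ± 0.23, 0.00597). Removing T0 replicate 2 ended the 3 d call (0.0609), removing either T0 library the 4 d call (0.0646 and 0.104), and removing mock 5 d replicate 2 the 5 d call (0.0911). ABI2 (AT5G57050, chromosome 5, 23087122 to 23089631) stood at 11.15 and 11.02 TPM at T0, and in mock at 9.61 and 9.38 TPM at 6 h, 11.4 and 14.5 TPM at 12 h, 9.77 and 11.4 TPM at 24 h and 9.76 and 8.33 TPM at 2 d. In mock it then stood at 7.08 and 7.2 TPM at 3 d, 8.44 and 8.2 TPM at 4 d and 7.73 and 8.32 TPM at 5 d. It was called lower at 3 d (-0.57 ± 0.17, adjusted p = 0.00979) and 5 d (-0.42 ± 0.17, 0.0432), and the call at 5 d was lost with either T0 library removed (0.115 and 0.084). With TMM factors and with quantile normalization ABI2 was called lower than T0 also at 2 d (adjusted p = 0.0186 and 0.00677) and 4 d (0.00288 and 0.000588). Between the 7 mock times HAI1 (adjusted p = 0.00191) and ABI2 (0.0174) differed, and HAI2 (0.0668) and ABI1 (0.21) did not pass with TPM as deposited. Both passed with TMM factors (0.0318 and 0.0365) and quantile normalization (0.00757 and 0.0316). In all 6 of 8 members differed between mock times, beside 48.4% of all genes.

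**Figure D3:**
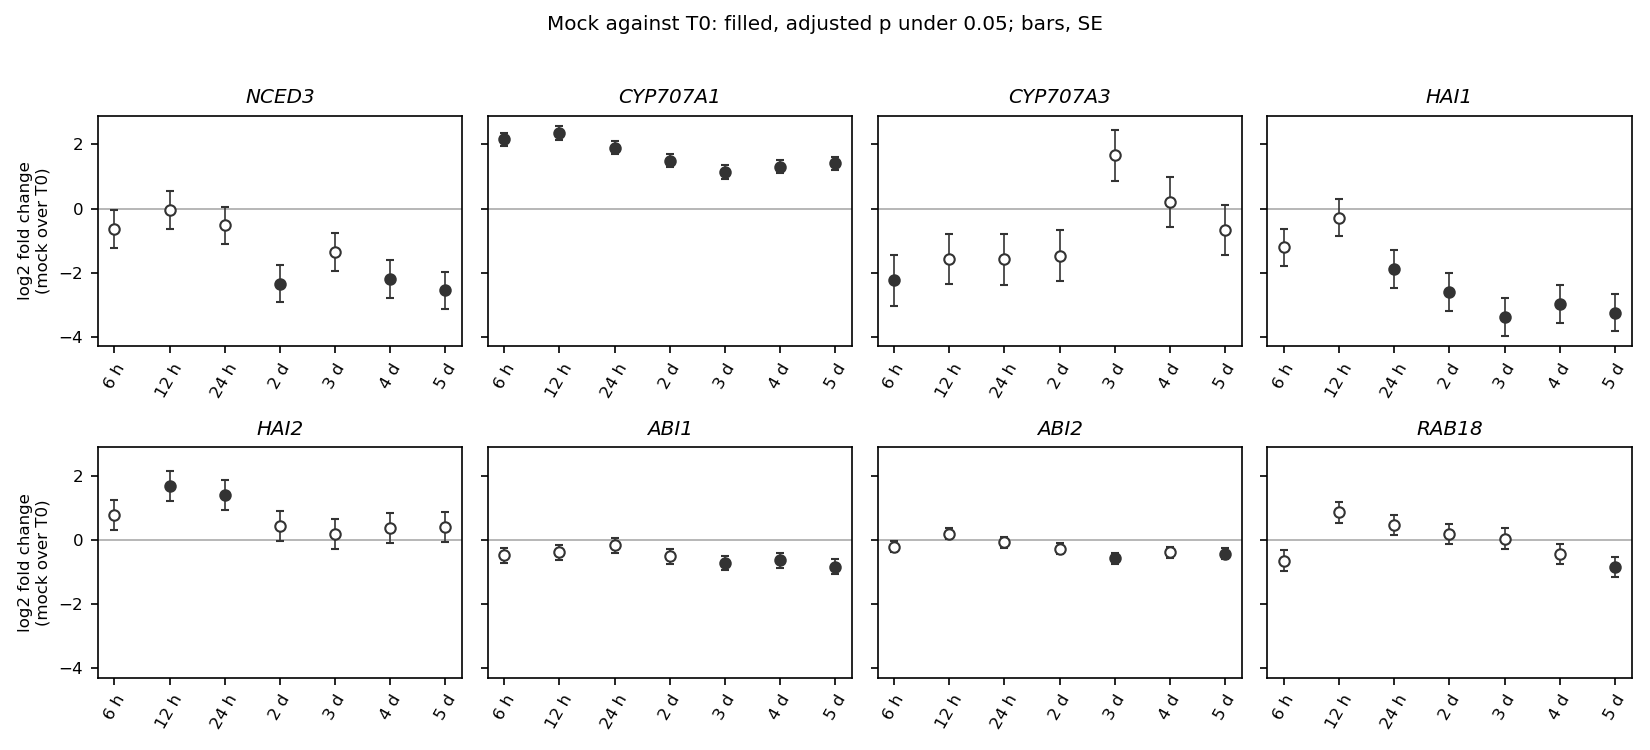
Log2 fold change of mock over T0 for the 8 tested genes (y axis, on the log2(TPM + 1) scale) from 6 h to 5 d (x axis), with bars of 1 SE; filled points have an adjusted p under 0.05. CYP707A1 lies above 0 at every time, from 2.16 at 6 h to 1.42 at 5 d, and HAI1 reaches -3.37 at 3 d.

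Of the response genes RAB18, which encodes a dehydrin, peaked at 12 h. RAB18 (AT5G66400) stood at 18.91 and 23.02 TPM at T0, and in mock at 10.6 and 16 TPM at 6 h, 45.5 and 33.1 TPM at 12 h, 25.4 and 34 TPM at 24 h and 30.2 and 19.2 TPM at 2 d. In mock it then stood at 22.1 and 21.1 TPM at 3 d, 15.5 and 14.8 TPM at 4 d and 11.5 and 11 TPM at 5 d. Both mock libraries were below both T0 libraries at 6 h, 4 d and 5 d, and above them at 12 h and 24 h (58.5% of all gene and time pairs did not overlap with T0). Of these differences from T0 the fall at 5 d was called (-0.83 ± 0.32, adjusted p = 0.0355), a call lost when either T0 library (0.0534 and 0.136) or either mock 5 d library (0.093 and 0.12) was removed. The difference at 12 h was 0.86 ± 0.32 (adjusted p = 0.0561). With TMM factors and with quantile normalization RAB18 was called lower than T0 at 6 h (adjusted p = 0.0462 and 0.0418) and 5 d (0.00517 and 0.00247). At 4 d it was called with quantile normalization (0.0374) and not with TMM factors (0.0635). Between 6 h and 12 h RAB18 rose by 1.504 ± 0.32 in mock (adjusted p = 0.0088), the only 1 of 48 steps between neighbouring mock times called over the 8 members, beside 2.01% of genes higher at that step (2.74% higher and 2% lower over all 6 steps, and 2.11% and 3.22% with NPA). With NPA it rose by 1.03 ± 0.32 over the same step (adjusted p = 0.0338), beside 2.31%. The mock step was lost without mock 6 h replicate 1 (0.117) or mock 12 h replicate 1 (0.0727), and the NPA step without NPA 6 h replicate 2 (0.381) or NPA 12 h replicate 2 (0.383). The level of RAB18 differed between the 7 mock times (adjusted p = 0.00212). RD29B (AT5G52300, chromosome 5, 21237021 to 21239531), a gene known to be induced by desiccation, stood at 0.06 and 0.14 TPM at T0 and no higher than 0.14 TPM in any library, and was listed at 0 in 6 of 30.

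Between NPA and mock with TPM as deposited, the 8 tested members were called at 5 d only, where NCED3 and CYP707A3 were higher with NPA. With TMM factors and with quantile normalization CYP707A1 at 6 h was called as well. Of 56 differences between NPA and mock 2 were called higher (3.57%, beside 0.832% of all gene and time pairs) and 0 lower (beside 5.17%), and 3 had an unadjusted p under 0.05. From 6 h to 4 d 0 members were called in either direction. Of all genes 0.881% were higher and 0.683% lower at 6 h, 0.852% and 1.23% at 12 h, 0.421% and 1.47% at 24 h, 0.421% and 3.27% at 2 d, 0.6% and 5.14% at 3 d and 0.605% and 9.3% at 4 d. At 5 d 2 members were higher and 0 lower, beside 2.04% and 15.1%. Among calls over all genes at 5 d 11.9% were higher with TPM as deposited, and scaling raised this share to 34.4% (TMM) and 37.5% (quantile). From 12 h to 4 d the same share was 40.8, 22.3, 11.4, 10.5 and 6.11% as deposited. TMM factors gave 52.2, 34.8, 17.1, 22.8 and 17.4%, and quantile normalization gave 53.5, 36, 17.5, 25.3 and 25.6%. The median gene differed by -0.12 at 3 d and 4 d and by -0.11 at 5 d with TPM as deposited.

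NCED3 stood at 5.53 and 16.3 TPM with NPA at 5 d, against 2.15 and 1.06 TPM in mock. The groups did not overlap (as in 49.5% of all gene and time pairs), and the difference was called (2.06 ± 0.59, adjusted p = 0.0205). It was lost without NPA 5 d replicate 2 (1.36, adjusted p = 0.255) and without mock 5 d replicate 2 (1.76, 0.2). CYP707A3 stood at 27.4 and 100.2 TPM with NPA at 5 d, against 23.6 and 3.23 TPM in mock, again without overlap (2.39 ± 0.79, adjusted p = 0.0438). Its 2 libraries differed widely within each group, and the call was lost in 16 of the 30 fits that leave out 1 library. In most of these 16 the difference stayed at 2.39. It came to 1.12 without mock 5 d replicate 2 and to 1.48 without NPA 5 d replicate 2. Over all 30 fits it ran from 1.12 to 3.66. The call was also lost with a pseudocount of 0.1 (0.0536), with no limit on low values (0.0532) and with a mean TPM of at least 5 (0.0543). At 3 d, when CYP707A3 was high in both media, it stood at 43.4 and 37.4 TPM with NPA, against 51.8 and 48.6 TPM in mock. At the other times CYP707A3 with NPA stood at 1.56 and 2.41 TPM (6 h), 2.48 and 4.31 TPM (12 h), 2.17 and 1.82 TPM (24 h), 21.7 and 4 TPM (2 d) and 10 and 30.3 TPM (4 d). NCED3 with NPA stood at 8.76 and 10.5 TPM (6 h), 9.75 and 14.2 TPM (12 h), 5.48 and 2.54 TPM (24 h), 9.03 and 1.78 TPM (2 d), 8.89 and 5.07 TPM (3 d) and 2.82 and 7.32 TPM (4 d). None of these differences from mock was called.

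CYP707A1 stood higher with NPA early and lower late, and was not called at any time. It stood at 23.8 and 16.9 TPM with NPA at 6 h, against 9.73 and 12.3 TPM in mock (0.82 ± 0.21, adjusted p = 0.0591). At 12 h it stood at 18.8 and 15.3 TPM with NPA, against 12.5 and 12.9 TPM in mock, and at 24 h at 14.4 and 10.8 TPM, against 8.06 and 10.10 TPM. At 2 d it stood at 9.55 and 7.9 TPM with NPA, against 6.15 and 6.95 TPM in mock. The NPA libraries were above both mock libraries at these 4 times. At 4 d CYP707A1 stood at 4.48 and 3.8 TPM with NPA, against 5.86 and 5.43 TPM in mock, and at 5 d at 4.44 and 4.83 TPM, against 6.18 and 6.12 TPM, so that NPA libraries were then below. The groups did not overlap at 6 of 7 times, beside 49.5% of all gene and time pairs. The F test of whether the NPA difference varied between times gave CYP707A1 an adjusted p of 0.088, and 0 of 8 members passed it, beside 5.86% of genes. The 6 h difference was called with TMM factors (0.84, adjusted p = 0.0204), quantile normalization (0.79, 0.0195) and a pseudocount of 5 (0.66, 0.0131).

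Averaged over the 7 times, 0 of 8 members were called, beside 6.6% of genes higher and 30.6% lower. The mean NPA difference was 0.18 for CYP707A1 (95% confidence interval 0.01 to 0.34, adjusted p = 0.0874), 0.42 for NCED3 (-0.04 to 0.89) and 0.22 for CYP707A3 (-0.41 to 0.84). For the phosphatase genes it was 0.18 for HAI1 (-0.28 to 0.65), -0.14 for HAI2 (-0.51 to 0.23), 0.01 for ABI1 (-0.17 to 0.19) and 0.08 for ABI2 (-0.05 to 0.21). Over single times the differences ran from -0.21 to 0.63 for HAI1, from -0.65 to 0.15 for HAI2, from -0.35 to 0.33 for ABI1 and from -0.13 to 0.25 for ABI2. RAB18 differed by 0.20 (-0.05 to 0.46). RAB18 with NPA stood at 23.6 and 13 TPM (6 h), 26.4 and 51.5 TPM (12 h), 23.7 and 21.5 TPM (24 h), 34.3 and 25.2 TPM (2 d), 26.4 and 26.3 TPM (3 d), 19 and 19.9 TPM (4 d) and 13.3 and 22.1 TPM (5 d). Its NPA libraries did not overlap the mock ones at 4 of 7 times, beside 49.5% of all gene and time pairs, and its lowest adjusted p was 0.257. The intervals of ABI1 and ABI2 are narrow, so a mean difference above 0.21 lies outside them, while those of NCED3 and CYP707A3 reach past 0.80. With TMM factors CYP707A1 (0.28, adjusted p = 0.00542) and ABI2 (0.18, 0.0299) were called higher, and with quantile normalization CYP707A1, NCED3 (0.59, 0.033) and ABI2 (0.21, 0.0153). Within the NPA course HAI1 fell by 1.84 ± 0.59 between 12 h and 24 h (adjusted p = 0.0477, beside 3.75% of genes lower and 9.21% higher at that step), a call lost in 20 of 30 fits that leave out 1 library, with -0.89 without NPA 24 h replicate 2. With NPA it stood at 5.16 and 0.64 TPM at 24 h, and at 6.33 and 16.7 TPM at 12 h.

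**Figure D4:**
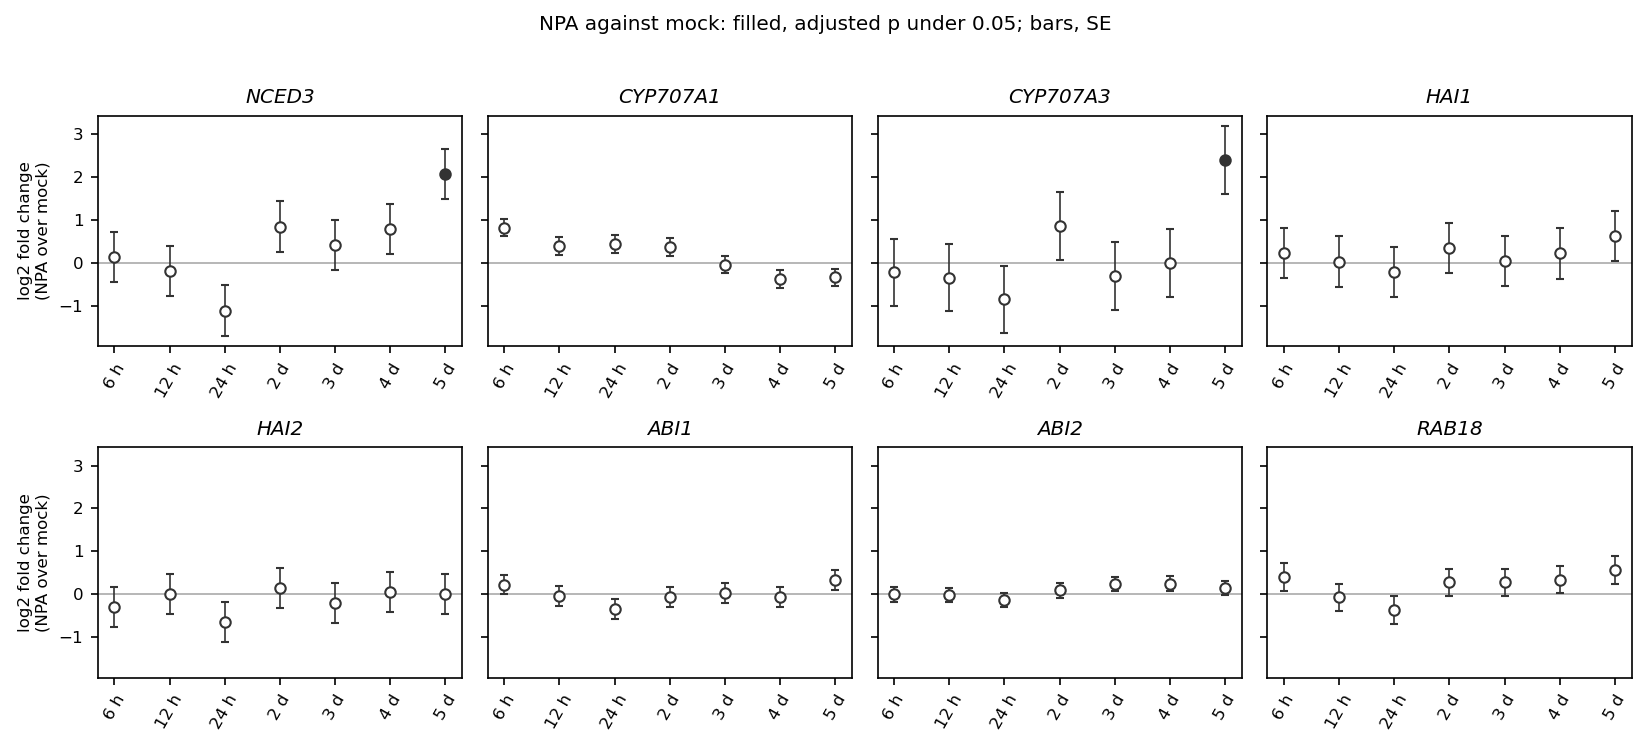
Log2 fold change of NPA over mock for the 8 tested genes (y axis, on the log2(TPM + 1) scale) from 6 h to 5 d (x axis), with bars of 1 SE; filled points have an adjusted p under 0.05. Only NCED3 (2.06) and CYP707A3 (2.39) at 5 d are filled, and CYP707A1 lies at 0.82 at 6 h and -0.34 at 5 d.

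The wider pathway was counted in 69 further genes, of which 53 were tested. Against T0 in mock 14 were higher and 6 lower at 6 h, 12 and 4 at 12 h, 18 and 4 at 24 h, 14 and 4 at 2 d, 17 and 6 at 3 d, 14 and 3 at 4 d and 16 and 2 at 5 d. As shares of the 53 these ran from 26.4% higher and 11.3% lower at 6 h, beside 26.5% and 6.22% of all genes, to 30.2% and 3.77% at 5 d, beside 42.4% and 10.9%. Higher calls made whichever T0 library was removed were 7, 3, 9, 8, 10, 9 and 9 in that order, and the lower ones 5, 0, 2, 3, 3, 2 and 2. No share of all genes was counted for calls kept whichever T0 library was removed. With both T0 libraries kept, 26.5, 17, 32.5, 33.4, 39.9, 39.8 and 42.4% of all genes were higher from 6 h to 5 d. In the same order 6.22, 7.53, 8.98, 8.94, 9.35, 8.74 and 10.9% were lower. Of 5 tested synthesis genes other than NCED3, 1 was higher at 6 h and 2 at 24 h, and 0 were lower at any time. ABA3, which makes the cofactor of the last synthesis enzyme, stood at 5.85 and 7.44 TPM in mock at 24 h, against 2.04 and 3.03 TPM at T0 (1.12 ± 0.14, adjusted p = 8.34e-06). AAO3, that last enzyme, stood at 10.4 and 8.56 TPM against 5.66 and 6.02 TPM (0.61 ± 0.17, adjusted p = 0.0084), a call lost with TMM factors (0.38, 0.136) and quantile normalization (0.22, 0.404). Of 5 breakdown and conjugation genes 2 were higher at 6 h and 3 at each later time, with 1 lower at 12 h and 24 h, and 2 higher at every time held with either T0 library removed. CYP707A2, a further hydroxylase gene, stood at 11.3 and 10.3 TPM in mock at 12 h, against 0.17 and 0.88 TPM at T0 (2.99 ± 0.32, adjusted p = 2.26e-06), and was called higher at all 7 times. BGLU18, a glucosidase that frees the hormone from its glucose ester, stood at 1514 and 690 TPM in mock at 6 h, against 14.2 and 79.7 TPM at T0 (4.87 ± 0.79, adjusted p = 0.000174). UGT71C5, which makes that ester, stood at 29.1 and 26.4 TPM in mock at 3 d, against 6.17 and 16.6 TPM at T0 (1.35 ± 0.30, adjusted p = 0.0012), and the difference was 0.70 without T0 replicate 1.

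Receptor genes were called higher in growing number with time, as all genes were (26.5% of all genes higher at 6 h and 42.4% at 5 d). Of 9 tested receptor genes 2 were higher and 2 lower than T0 at 6 h, and 5 higher and 0 lower at 4 d and 5 d, and those of 4 d and 5 d held with either T0 library removed. PYL5 stood at 27.4 and 25.4 TPM in mock at 3 d, against 2.4 and 0.67 TPM at T0 (3.52 ± 0.40, adjusted p = 2.4e-06). PYL6 stood at 11.11 and 10.13 TPM in mock at 5 d, against 0.09 and 0.32 TPM at T0 (3.27 ± 0.35, adjusted p = 5.06e-07). PYL7 went the other way early, at 7.25 and 6.65 TPM in mock at 6 h, against 14.5 and 34.6 TPM at T0 (-1.56 ± 0.33, adjusted p = 0.00161), and the difference was -0.96 without T0 replicate 2. Of 3 tested phosphatase genes outside the 10, 1 was lower at 6 h and from 2 d on and 0 were higher at any time. Of all genes 6.22% were lower at 6 h and 8.74% to 10.9% from 2 d on. PP2CA stood at 36 and 31 TPM in mock at 5 d, against 87.9 and 131 TPM at T0 (-1.66 ± 0.27, adjusted p = 6.74e-05). Among 3 kinase genes SNRK2.3 was called at 3 d (1.81 ± 0.62, adjusted p = 0.0223), but its T0 libraries stood at 2.81 and 35.3 TPM and the difference was 0.18 without T0 replicate 1. OST1, the kinase of stomatal closure, was called at 6 h (0.50 ± 0.18, adjusted p = 0.0398), a call lost without T0 replicate 2 (0.27, 0.284), without mock 6 h replicate 2 (0.20, 0.467), with TMM factors (0.26, 0.332) and with quantile normalization (0.24, 0.378).

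Of 4 transporter genes 2 were higher and 1 lower at 6 h and 3 higher from 3 d on, and with either T0 library removed 0 to 2 of the higher calls held at each time. Of all genes 26.5% were higher and 6.22% lower at 6 h. From 24 h to 3 d 32.5% to 39.9% of all genes were higher, and from 3 d on 39.8% to 42.4%. NPF4.6, an importer, stood at 50.9 and 42.7 TPM in mock at 3 d, against 19.7 and 16.3 TPM at T0 (1.33 ± 0.14, adjusted p = 1.15e-06). ABCG40, another importer, stood at 1.69 and 1.24 TPM in mock at 3 d, against 0.06 and 0.11 TPM at T0 (1.18 ± 0.27, adjusted p = 0.00192), and with quantile normalization the adjusted p was 0.0936. ABCG25, an exporter, stood at 3.87 and 3.21 TPM in mock at 6 h, against 11 and 6.99 TPM at T0 (-1.11 ± 0.17, adjusted p = 9.17e-05). Of 5 transcription factor genes 1 was higher from 24 h to 3 d, a call that did not hold with either T0 library removed, and 0 were lower. ABF1 stood at 26.9 and 28.6 TPM in mock at 24 h, against 1.12 and 17.6 TPM at T0 (2.19 ± 0.72, adjusted p = 0.0223), and the difference was 0.63 without T0 replicate 1 (adjusted p = 0.482). Of 19 other response genes 6 were higher and 2 lower at 6 h, and at 5 d these were 4 and 1, of which 3 and 2 (6 h) and 0 and 1 (5 d) held with either T0 library removed. Named by the rule at 6 h were 3 genes of proteins linked to cold and drought. KIN1 stood at 62.2 and 77.3 TPM in mock at 6 h, against 0.44 and 4.95 TPM at T0 (4.59 ± 0.57, adjusted p = 1.2e-05), with reads that its copy KIN2 may share. COR15A stood at 1520 and 1936 TPM in mock at 6 h, against 18.2 and 346 TPM at T0 (4.39 ± 0.79, adjusted p = 0.000463), and the difference was 2.31 without T0 replicate 1 and 6.48 without T0 replicate 2. LTI30 stood at 41.4 and 22.4 TPM in mock at 6 h and was listed at 0 in T0 replicate 1 and at 6.9 TPM in replicate 2 (3.48 ± 0.90, adjusted p = 0.0069), and the adjusted p was 0.124 without T0 replicate 1.

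With NPA against mock the wider lists held from 0 to 2 higher and from 0 to 1 lower calls at each time. At 5 d these were 2 higher (3.77% of 53, beside 2.04% of all genes) and 0 lower (beside 15.1%), and at 6 h 1 higher (1.89%, beside 0.881%) and 0 lower (beside 0.683%). CYP707A4, a hydroxylase gene outside the 10, was higher with NPA at 12 h, 24 h, 2 d and 5 d. It stood at 5.24 and 4.91 TPM with NPA at 2 d, against 0.26 and 0.67 TPM in mock (2.07 ± 0.37, adjusted p = 0.00288), and the adjusted p was 0.0537 without mock 2 d replicate 1. RD26, a NAC factor gene induced by the hormone, was higher at 6 h, 12 h and 5 d. It stood at 30.1 and 32 TPM with NPA at 6 h, against 7.29 and 4.61 TPM in mock (2.23 ± 0.37, adjusted p = 0.00185), and the adjusted p was 0.052 without mock 6 h replicate 2. AAO3 stood at 11.6 and 14.7 TPM with NPA at 2 d, against 6.52 and 8.67 TPM in mock (0.73 ± 0.17, adjusted p = 0.019). The glucosidase gene BGLU33 stood at 56.8 and 59.7 TPM with NPA at 4 d, against 99.6 and 100.2 TPM in mock (-0.77 ± 0.18, adjusted p = 0.00803). NPF4.6 stood at 22 and 28.8 TPM with NPA at 24 h, against 40.6 and 38.7 TPM in mock (-0.63 ± 0.14, adjusted p = 0.0254), a call lost with TMM factors (0.129) and quantile normalization (0.0801). AAO3, BGLU33 and NPF4.6 each also lost these calls in at least 2 of the 30 fits that leave out 1 library.

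Within groups ABI1 moved from library to library together with clock genes, a pattern noticed in the data, and the other tested members did so less. In each of the 15 groups the library with more CCA1 had less ABI1. Of 20653 other genes 18 (0.0872%) were opposite to CCA1 in all 15 groups, and the median gene was opposite in 9. For the other tested members the library with more CCA1 also had more of the member in 3 (NCED3) to 7 (CYP707A1) of 15 groups. ABI1 was higher in the library with more TOC1, an evening clock gene, in 14 of 15 groups (1.31% of genes reach 14). NCED3 was so in 13 (4.78% of genes reach 13), the remaining tested members in 9 to 11, and the median gene in 9. NCED3 and CYP707A3 were higher in the same library in 13 of 15 groups (1.77% of genes reach 13 with NCED3). In mock at 12 h, for example, ABI1 stood at 53.3 and 80 TPM in replicates 1 and 2, where CCA1 stood at 114 and 14.4 TPM, and with NPA at 24 h ABI1 stood at 70.3 and 50 TPM, where CCA1 stood at 2.34 and 10.5 TPM. The part of the clock in the member results was not tested.

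**Figure D5:**
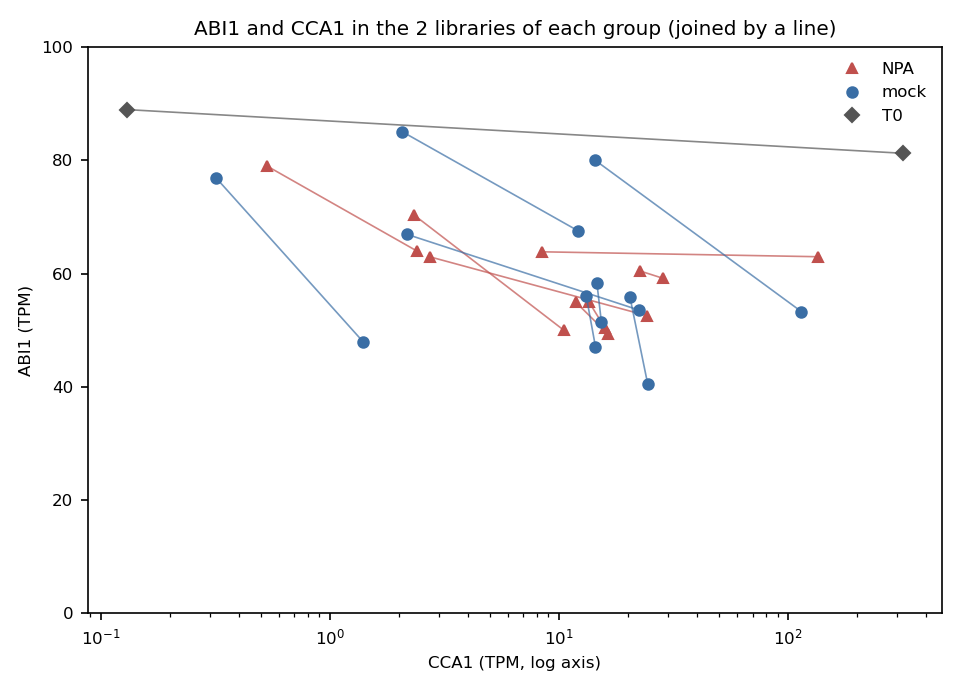
ABI1 (y axis, TPM) against CCA1 (x axis, TPM on a log axis) in all 30 libraries, with the 2 libraries of a group joined by a line. All 15 lines run downward to the right, and the widest on the CCA1 axis is the T0 pair, at 318 and 0.13 TPM.

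Over the 15 group means HAI1 was most like ABI2 (r = 0.85) and ABI1 (r = 0.795) among the members, and NCED3 was most like HAI1 (r = 0.753). The points share libraries and the T0 group, and the values are a description. Among 14387 genes with a mean of at least 5 TPM, those most like NCED3 were LOG1 (r = 0.898), AT5G50915 (0.87) and AT5G56980 (0.861). Most like HAI1 were HCF244 (r = 0.953), AT2G38780 (0.951) and GS2 (0.95), and most like RAB18 were APE2 (r = 0.895), AT2G35260 (0.889) and AT5G39530 (0.871), each over the 15 groups.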

How the data were processed

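The tissue was the wounded end of leaf explants, and TRIzol RNA from it was read by Illumina sequencing, per the labels' protocols. What the authors deposited is TPM, in 1 table for mock and 1 for NPA. The T0 columns are the same in the 2 tables and entered once. The submitters' processing notes list Trim Galore 0.5.0, STAR 2.7.2b, RSEM 1.3.2 and TAIR10. TPM is a share within a library, keeps no read depth and allows no counting interval.

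Log2(TPM + 1) values of the 20654 genes that reached 1 TPM in 2 or more libraries were fitted in limma 3.58.1 (R 4.3.3, lmFit, eBayes with trend) with 1 mean per group, 15 residual and 2.33 prior degrees of freedom, and p-values were adjusted by Benjamini-Hochberg within each comparison, two-sided. Groups and replicate numbers came from the sample titles. The fit was tested on simulated data. Members and lists were chosen with earlier results of these data known. Named genes were the 10 members, up to 3 called genes per list and comparison with the greatest change, and the 3 genes with the highest r to NCED3, HAI1 and RAB18. Alternatives changed the pseudocount (0.1 or 5), the limit on low values (none, or a mean of 5 TPM) and the scaling (TMM or quantile), with no trend, separate fits, a replicate block and each library left out. A planned comparison of protein identity was replaced by one of coding sequences, aligned with Biopython 1.88, since no protein table was used here.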

Additional observations from a re-analysis of the deposited data

How the results depend on the processing

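With 2 libraries a group, a difference is only as firm as each library, and TPM leaves depth unknown. No called value changed its direction under any alternative. Member calls of mock against T0 (9 higher, 15 lower) came to 7 to 11 higher and 9 to 16 lower with 1 library left out (11 higher and 9 lower without T0 replicate 2, which turns their order round), to 9 lower in both fits without a T0 library, and to 0 higher and 1 lower in fits to the libraries compared alone. Calls of NPA over mock (2 higher) fell to 1 with a pseudocount of 0.1, without the limit on low values, with a mean TPM limit of 5 and in separate fits. In separate fits both NCED3 and CYP707A3 at 5 d were lost (adjusted p 0.12 and 0.256), so the 1 call there was a different one. The count was 3 with TMM factors and with quantile normalization. It ranged from 0 to 3 with 1 library left out, where calls on the mean of 7 times ranged from 0 to 1. On that mean 0 became 1 with a pseudocount of 5 and separate fits, 2 with TMM factors and 3 with quantile normalization. The NPA effect varied between times for 1 member, not 0, with a pseudocount of 5, separate fits and a crossed replicate block, and for 0 to 1 with 1 library left out. Higher mock steps (1) became 2 with a pseudocount of 5 and TMM factors, and lower ones (0) became 1 with TMM factors and separate fits and 2 with quantile normalization, with ranges of 0 to 2 and 0 to 1 with 1 library left out. NPA steps (1 higher, 1 lower) became 2 and 2 with TMM factors, 2 and 4 with quantile normalization and 0 and 0 in separate fits. The lower count was 0 at both pseudocounts, without the limit on low values and with the replicate block. Each count ranged from 0 to 2 with 1 library left out. With a mean TPM limit of 5 the lower count was also 0. That limit drops HAI1 (mean 4.05 TPM) and HAI2 (2.88 TPM), so the lower step of HAI1 was not tested there. The cause of these moves was not tested. The mean NPA difference of HAI2 (-0.14) was 0.0566 with quantile normalization, and that of ABI1 (0.01) ranged from -0.0387 to 0.0569 with 1 library left out. Same-numbered libraries did not deviate together (r of -0.57, -0.58, -0.36, 0.33, 0.05, -0.14 and -0.14 from 6 h to 5 d), so the numbers do not pair the samples; with the replicate block mock against T0 gave 9 higher and 14 lower calls and NPA against mock 2 and 0, and with numbers crossed at the times of negative r, a choice made after the data were seen, 3 and 0.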
